A study of Mus musculus with 27 samples.

Results

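The immune cells captured with the back skin of 2 wild-type mice were described from their single-cell transcriptomes, as UMIs (unique molecular identifiers, each counting 1 captured RNA molecule). The labels named no treatment, and the mice were sampled at postnatal day 32, in AnaVI, the stage of full hair growth. 1 library of 10x 3' sequencing was made per mouse, and the strain was not given in the labels. The back skin was digested with collagenase and then trypsin, and cells without surface CD45, CD31, CD140a and CD117 were enriched by sorting. CD45 is the product of Ptprc (chr1:138062861-138175708, GRCm38, minus strand), so the sort was meant to leave immune cells out, and the shares below describe what passed it and not the makeup of skin. The same series holds cultured hair follicle stem cells (HFSCs) profiled by other assays, of which the single-cell libraries were used here for 1 count.

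Immune cells were selected on measured values. A barcode was kept with at least 500 genes, at least 1000 UMIs and under 10% mitochondrial UMIs. It was taken as an immune cell with at least 1 Ptprc UMI and at least 4 UMIs over Ptprc, Tyrobp, Fcer1g, Cd52 and Coro1a. Krt5 and Krt14, keratins of basal keratinocytes, had to stay under 0.1% of its UMIs, and Col1a1, Col1a2, Col3a1 and Dcn, matrix genes of fibroblasts, under 1%. The rule found 664 of 28373 kept cells, or 2.34%. Mouse 1 gave 236 of 14458 kept cells, a share of 1.63% (95% exact Clopper-Pearson interval 1.43 to 1.85). Mouse 2 gave 428 of 13915, a share of 3.08% (2.80 to 3.38). The share in mouse 2 was thus 1.88 times that in mouse 1, and these intervals, like all others below, cover counting error only.

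Skin holds resident and passing immune cells. Macrophages of the dermis take up debris and carry scavenger receptors, while dendritic cells present peptides on MHC class II to T cells. Langerhans cells, marked by Cd207, and dendritic epidermal T cells, which carry a gamma-delta receptor, live in the epidermis itself. Type I interferon switches on a shared set of antiviral genes in immune and non-immune cells alike.

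The libraries held 145318618 UMIs over 16521 barcodes in mouse 1 and 167258677 over 16068 in mouse 2. Immune cells had a median of 4598 and 5436 UMIs, against 8944 and 10768 in the other kept cells of the same mice. Of the barcode sequences, 46 were shared by the kept cells of both libraries and 0 by their immune cells. A caller of doublets (barcodes that hold more than 1 cell) marked 12 of 236 and 14 of 428 immune cells, which stayed in unless said. The other genes behind the sort markers had UMIs in 2.25% and 3.53% (Pecam1, CD31), 44.7% and 55.7% (Pdgfra, CD140a) and 14.9% and 14.8% (Kit, CD117) of kept cells of mice 1 and 2. When the rule was applied to the cultured HFSCs, it found 0 cells among 262 and 94 kept.

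The genes of the rule were concentrated in the cells it chose, which is a description and not a finding. Ptprc, a phosphatase that sets antigen receptor signalling, was at 779 CPM (counts per 1000000 UMIs) in mouse 1 and 979 in mouse 2, against 1.66 and 3.53 CPM in the other kept cells. Tyrobp, an adaptor of activating receptors, was at 1145 and 1304 CPM against 2.66 and 4.91. Coro1a, an actin regulator of blood cells, was at 634 and 555 CPM against 2.22 and 2.41. Fcer1g, a signalling chain of Fc receptors, and Cd52, a small surface glycoprotein of leukocytes, were at 888 and 881 and at 831 and 917 CPM. Blood cell genes that the rule did not name, picked after their values were seen, followed the same split. Laptm5, a lysosomal membrane protein of blood cells, was at 569 and 513 CPM against 1.72 and 2.46, and Lcp1, an actin bundling protein, reached 440 and 352 CPM in immune cells.

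Few cells lay at the limit of the summed immune genes, but more lay in the upper part of the range allowed for keratin and fibroblast genes. With all other limits met, the 5 genes summed to exactly 4 UMIs in 8 and 13 cells and to 3 in 3 and 10 cells that were left out, while 196 and 358 members had 10 or more. The keratin share was 0.05 to 0.1% in 23 and 20 members and 0.1 to 0.2% in 4 and 4 cells left out. The fibroblast gene share was 0.5 to 1% in 15 members of mouse 1 and 147 of mouse 2, and 1 to 2% in 5 and 20 cells left out. RNA of other cell types was therefore present in the immune cells, and more of the dermal kind in mouse 2. A list of 9 fibroblast genes, 4 of them under the limit of the rule, reached 3100 and 4759 CPM in the immune cells, against 29504 and 39713 CPM in the other kept cells. The keratinocyte list reached 801 and 674 CPM. The endothelial list was at 83.5 CPM in mouse 2, above the 42.3 CPM of the other kept cells of that mouse, and is not counted as such RNA. In mouse 2 it reached 472 CPM in cluster 11, described below, where Pecam1 was its 1 gene at least 4-fold higher than in the other immune cells. The part of RNA of other cell types in the results below was not tested unless a value is given.

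The immune cells were subdivided by 3 gene pairs or genes at a limit of 2 UMIs. C1qa and C1qb placed 67 cells, 10.1%, in a C1q subset, which held 27 cells of mouse 1 (11.4%, 7.68 to 16.2) and 40 of mouse 2 (9.35%, 6.76 to 12.5). Cd3e and Cd3g placed 32 cells, 4.82%, in a T subset, which held 15 cells of mouse 1 (6.36%, 3.60 to 10.3) and 17 of mouse 2 (3.97%, 2.33 to 6.28). The intervals of the mice overlapped for both subsets. With each cell thinned to 1500 UMIs, the T subset came to 2.44% of immune cells (16 of 657). Cd207 placed 1 cell of mouse 1 and 0 of 428 of mouse 2, which allows a share of up to 0.701% by a limit of 3 counts and of up to 0.858% by the exact interval. No cell passed more than 1 limit, and 193 and 371 cells, or 84.9% in all, passed none. In the other kept cells, 2.51% and 3.25% had a C1qa or C1qb UMI and 0.253% and 0.304% a Cd3e or Cd3g UMI, in cells of greater depth.

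The C1q subset carried genes known from scavenging macrophages of the dermis. C1qa, C1qb and C1qc encode the chains of complement C1q and lie side by side on chromosome 4 (C1qb chr4:136880129-136886187, C1qc chr4:136889804-136893065 and C1qa chr4:136895917-136898803, GRCm38, all on the minus strand). C1qa and C1qb chose the cells and stood at 5070 and 2922 CPM in mouse 1 and at 2293 and 1495 CPM in mouse 2. C1qc, which the rule did not use, was at 1970 and 1105 CPM, against 3.61 and 3.26 CPM in the rest of the immune cells, and all 27 cells of mouse 1 and 38 of 40 of mouse 2 had a UMI of it.

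A gene was counted as higher or lower in a subset when its CPM, with 10 CPM added, differed at least 4-fold from the other immune cells in the same direction in both mice. Among 10145 genes with at least 10 CPM in a group, 66 (0.651%) were higher in the C1q subset by this measure and 63 (0.621%) were lower. These shares are the background for the lists below, and because every gene of the chosen cells shares their RNA, no test was made. Of 16 macrophage markers 10 were higher, C1qa and C1qb by the rule itself. The other 8 of 14 included Mrc1, a mannose receptor, at 2763 and 1427 CPM, and F13a1, a coagulation factor of macrophages, at 3057 and 1680 CPM. The list of uptake and scavenger receptors had 7 of 12 measured genes higher, the macrophage receptors Folr2, Cd163, Lyve1 and Mrc1 counting in both lists. Cd163, the haemoglobin scavenger receptor, was at 625 and 252 CPM, and Timd4, a receptor for phosphatidylserine on dying cells, at 168 and 76.6 CPM. Lyve1, a hyaluronan receptor, was at 207 and 54.3 CPM, and Stab1, a scavenger receptor of macrophages and sinusoidal endothelium, at 327 and 246 CPM. Each of these receptors was lower in mouse 2 than in mouse 1, but the subset was made up differently: 19 of 27 cells of mouse 1 and 11 of 40 of mouse 2 lay in the macrophage-like cluster 10 described below, and 0 and 20 in cluster 1.

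Chemokines in the C1q subset differed sharply between cells. Ccl8, a monocyte attractant, stood at 4974 CPM in mouse 1 and 1079 CPM in mouse 2, against 5.42 and 6.52 CPM in the other immune cells. It was found in 17 of 27 and 11 of 40 cells, and in mouse 2 a single cell held 53.6% of its UMIs. In the other kept cells 9.33% and 20.0% had a Ccl8 UMI, so its mere presence did not mark the subset. Pf4, a platelet-type chemokine that macrophages also make, was at 985 and 610 CPM and was found in 23 of 27 and 23 of 40 cells. Ccl12 was at 76.9 and 195 CPM and was, after these, the last chemokine counted as higher, while Ccl5, a chemokine of cytotoxic lymphocytes, had 0 UMIs and was the 1 chemokine counted as lower. Ccl24, an eosinophil attractant, was at 260 CPM in mouse 1 and 22.4 CPM in mouse 2, where it rested on 3 cells.

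Several secreted and lipid-handling genes were among the genes counted as higher. Apoe, the main lipid carrier made by macrophages, was at 16283 and 6821 CPM in the C1q subset, against 1430 and 1431 CPM in the cells of no subset and 2043 and 3653 CPM in the non-immune cells. Selenop, a selenium carrier, was at 2951 and 2341 CPM, and Pltp, a phospholipid transfer protein, at 976 and 872 CPM. With Abca1, a cholesterol exporter, at 433 and 588 CPM, these made 4 of 17 measured genes of lipid and iron handling that were higher. Igf1, a growth factor that acts on hair follicles, was at 351 and 192 CPM, while the other kept cells were at 208 and 256 CPM and held it in 41.0% and 50.1% of cells. Gas6, a ligand that bridges dying cells to phagocytes, was at 687 and 230 CPM, and the other kept cells were at 246 and 208 CPM.

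MHC class II genes did not set the C1q subset apart. None of the 11 genes was counted either way, with a median log2 difference of -0.80 in mouse 1 and -0.03 in mouse 2 against medians of -0.13 and -0.09 over all genes. Cd74, the invariant chain, was at 4287 and 5560 CPM in the subset and at 8108 and 5904 CPM in the cells of no subset. Dermal RNA was at a similar level in the subset as in all immune cells, since its fibroblast list stood at 3576 and 4592 CPM.

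The T subset was small, and 1 UMI in it was worth 12.1 CPM in mouse 1. A gene with no UMI there could stand at up to 36.4 or 35.9 CPM, the level of 3 UMIs. By the same measure 85 of 10736 genes (0.792%) were higher and 272 (2.53%) were lower. All 12 general T cell markers were among the higher ones, Cd3e and Cd3g by the rule itself and 10 others beside them. Cd3g (chr9:44969572-44980431, GRCm38, minus strand) and Cd3e (chr9:44998740-45009627) chose the cells and were at 1274 and 364 CPM in mouse 1 and at 1100 and 430 CPM in mouse 2. Cd3d, a further chain of the same receptor complex that the rule did not use, was at 376 and 347 CPM, against 5.68 and 2.98 CPM in the other immune cells, and 10 of 15 and 11 of 17 cells had a UMI.

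Both lineages of T cell receptor were represented. Trac, the constant region of the alpha chain, was found without Trdc in 6 of 15 and 8 of 17 cells. Trdc, that of the delta chain, was found without Trac in 5 of 15 and 3 of 17, and both were found in 0 and 1 cells. Neither was found in 4 and 5 cells, where the depth did not allow a call. A UMI of any alpha or beta constant region was found in 14 and 15 cells, one of any gamma or delta constant region in 8 and 8, and both kinds in 7 and 6. Trbc2 also had a UMI in 4.89% and 5.17% of the other kept cells. In CPM, Trdc was at 400 and 203, Trac at 146 and 203, and Trbc2 at 558 and 622.

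Among effector genes, Nkg7, a protein of cytotoxic granules, was at 619 and 717 CPM and was found in 9 of 15 and 10 of 17 cells. Ctla2a, a cathepsin inhibitor of activated T cells, was at 934 and 1650 CPM in 6 and 9 cells. Gzmc, a granzyme, had the largest difference of the subset at 1371 and 2761 CPM, but all 113 UMIs of mouse 1 came from 1 cell and the 231 of mouse 2 from 2 cells. Il7r, the receptor for the survival signal interleukin 7, was at 279 and 681 CPM in 8 and 13 cells, and Il18r1 at 182 and 371 CPM. Xcl1, a chemokine that attracts XCR1-bearing dendritic cells, was at 328 and 227 CPM. Icos, a co-stimulatory receptor, was at 230 and 203 CPM, and Ikzf2, a transcription factor of regulatory and innate-like T cells, at 667 and 538 CPM.

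Finer T cell types were only in part resolved. Of the alpha-beta T cell list 4 of 9 measured genes were higher, and of the regulatory T cell list 2 of 6. Of the list for dendritic epidermal T cells 5 of 10 measured genes were higher, and of that for dermal interleukin 17 type gamma-delta cells 7 of 11. Trdc and Tcrg-C1 counted in both the dendritic epidermal and the dermal gamma-delta list. Il23r, the receptor that drives interleukin 17, was at 72.8 and 131 CPM, on 2 and 4 cells. Il17a had 0 UMIs in both mice. Cd163l1, a marker of those cells, came from 1 cell in each mouse. Cd4 had 1 and 5 UMIs, Cd8a 0 and 3, and Foxp3, the regulator of regulatory T cells, 0 and 1, all too few to tell these types apart at this depth.

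Genes of antigen presentation and of phagocytes were lower in the T subset. Of 11 MHC class II genes 10 were counted as lower, with H2-Aa at 12.1 and 23.9 CPM and Cd74 at 24.3 and 23.9 CPM. Of 16 macrophage markers 13 were lower, and of 15 lysosomal genes 10, including Lyz2, lysozyme of myeloid cells, which had 0 UMIs in mouse 1 and stood at 23.9 CPM in mouse 2. The T cells of mouse 1 also held cycling and hair shaft RNA. Their cell cycle list was at 2487 CPM against 191 CPM in mouse 2, and their hair shaft list at 1735 against 239 CPM. Of the 15 cells, 3 sat in cluster 5 and 11 in the T cell-like cluster 7, both described below. In cluster 7 as a whole, the hair shaft list was at 1484 CPM in mouse 1 and 281 CPM in mouse 2.

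**Figure D1:**
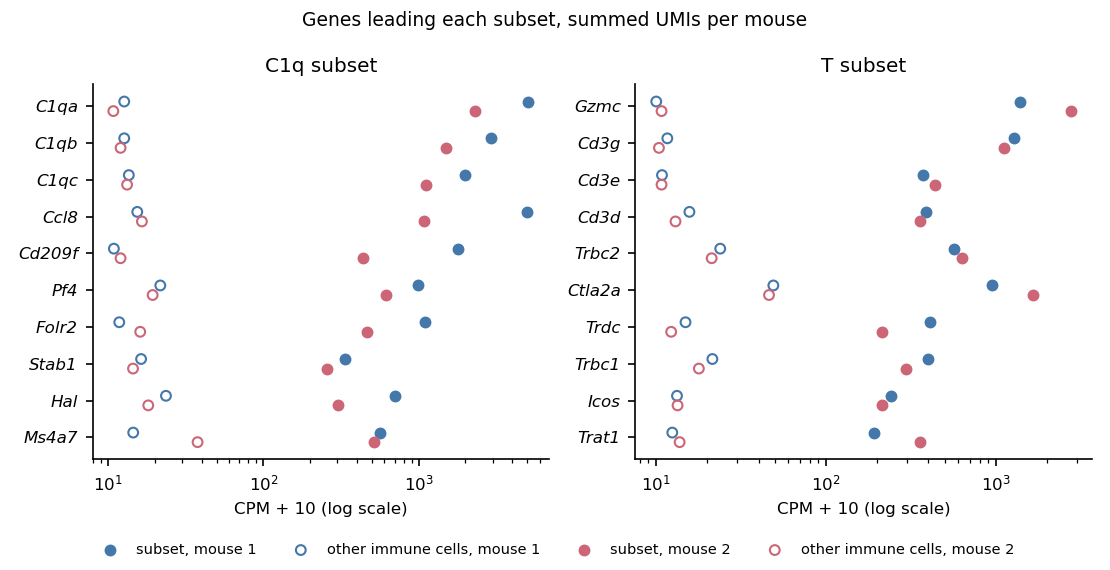
The 10 leading genes of the C1q subset and of the T subset are plotted by level (CPM plus 10, log axis), filled points for the subset and open points for the other immune cells, blue for mouse 1 and red for mouse 2. The genes were chosen for being higher in both mice, and C1qa, C1qb, Cd3e and Cd3g also chose the cells, so the plot shows sizes only, with C1qc at 1970 and 1105 CPM and the Gzmc points resting on 1 and 2 cells.

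Because most cells fell in no subset, all 664 were also clustered on their variable genes, which gave 14 clusters. A cluster was named only from a list of markers, at least 3 of which had to be at least 4-fold higher in it. Both this fold and the leading genes of a cluster were taken with the cells of both mice summed. Genes with over 25% of their UMIs of a cluster in 1 cell were set aside. No name was given where the leading genes, short of those with over 50% in 1 cell, held more markers of another list. Cluster 10, with 30 cells, was macrophage-like by 12 of 16 markers, and all 30 were cells of the C1q subset. It held 19 cells, 8.05%, of mouse 1 and 11, 2.57%, of mouse 2. Ccl8 was at 7083 and 3166 CPM in it and Folr2, a folate receptor of resident macrophages, at 1476 and 1092 CPM. The other C1q cells lay elsewhere, 20 of the 40 of mouse 2 in cluster 1 and 4 and 6 in cluster 8.

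Lymphoid cells formed 3 clusters. The T cell-like cluster 7 had 43 cells, 16 and 27, and held 28 of the 32 T subset cells. Its Skap1, an adaptor of T cell receptor signalling, was at 1130 and 1927 CPM, and its Tox, a regulator of T cell fate, at 405 and 1133 CPM. The B cell-like cluster 3 had 67 cells and all 7 B cell markers, with Cd79a, a chain of the B cell receptor, at 1864 and 1640 CPM and Ms4a1, which encodes CD20, at 957 and 681 CPM. It made up 5.93% (3.28 to 9.75) of the cells of mouse 1 and 12.4% (9.42 to 15.9) of those of mouse 2. Plasma cells were not named, and all UMIs of the heavy chain gene Ighg2b in the cluster came from 1 cell. Genes of the plasma cell list were found in more of its cells, Jchain in 4, Igha in 5 and Mzb1 in 28. A single cell held 43.1% of the Jchain UMIs, 56.7% of the Igha UMIs and 31.7% of the Mzb1 UMIs. The NK cell and group 1 innate lymphoid cell-like cluster 13 had 24 cells, 13 and 11. Its Gzma, a granzyme, was at 7036 and 6239 CPM, its Ncr1, the activating receptor of natural killer cells, at 1082 and 953 CPM, and its Ccl5 at 10337 and 11642 CPM.

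Myeloid cells with clear markers formed 3 further named clusters. The neutrophil-like cluster 9 had 37 cells with a median of only 2284 UMIs. S100a9 and S100a8, the calprotectin subunits of neutrophils, stood at 77610 and 29977 CPM in mouse 1 and at 63891 and 27269 CPM in mouse 2. Il1b, an inflammatory cytokine, was at 3347 and 6102 CPM there. The type 2 conventional dendritic cell-like cluster 12 had 26 cells and 4 markers, with Cd209d at 1406 and 1207 CPM and Flt3, the growth factor receptor of dendritic cells, at 320 and 571 CPM. Its muscle gene Acta1 came almost wholly from 1 cell. The plasmacytoid dendritic cell-like cluster 14 had 15 cells, with Siglech, a surface lectin of these cells, at 2766 and 1948 CPM.

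The other 7 clusters stayed unnamed and are given by their leading genes. Cluster 6 had 51 cells, 21 and 30, and passed 6 of the type 1 conventional dendritic cell markers, with Xcr1, the receptor for Xcl1, at 218 and 157 CPM. It was left unnamed because the haemoglobin genes Hba-a1, Hbb-bs and Hbb-bt outnumbered those markers, Xcr1 and Wdfy4, among the leading genes counted. For these haemoglobin genes, 1 cell held 33.8%, 39.2% and 47.8% of the UMIs in turn. The erythrocyte list of cluster 6 was at 52129 CPM in mouse 1 and 8353 CPM in mouse 2, and Hbb-bs was found in 26 of the 51 cells. Cluster 2 was led by Cd209a, Olfm1 and Mgl2 and had 80 cells, 46 of mouse 1 (19.5%, 14.6 to 25.1) and 34 of mouse 2 (7.94%, 5.56 to 10.9). Its MHC class II list was at 29509 and 27600 CPM, close to that of cluster 6 at 27170 and 25417 CPM. Cluster 8 was led by Tnip3, Rgs1 and Cxcl16 and had 42 cells, with Il1b at 1768 and 1187 CPM and Cd83, a marker of activated dendritic cells, at 873 and 895 CPM. Its list of genes that respond to tissue dissociation was at 8147 and 9412 CPM, against 4311 and 4199 CPM in all immune cells.

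Cluster 4 was led by Plcb1, Chil3 and Clec4e and had 66 cells, 23 and 43, with Ccr2, the chemokine receptor of inflammatory monocytes, at 674 and 1045 CPM and 2 of the monocyte markers past the limit. Cluster 11 had 30 cells, 6 and 24, and was led by Treml4 and Ace, genes known from circulating monocytes that patrol vessels, Ace being at 719 and 646 CPM. Cluster 5 had 55 cells led by Fabp5, S100a14 and other genes, with a median of 13270 UMIs, and 23 of them were called doublets. Of the hair shaft and root sheath list, 3 genes passed the limit, and the cluster was given no cell type name. Krt25, a keratin of the inner root sheath, was at 624 and 450 CPM in it, and nearly all UMIs of the mast cell genes Tpsb2, Cma1 and Cpa3 there came from 1 cell.

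**Figure D2:**
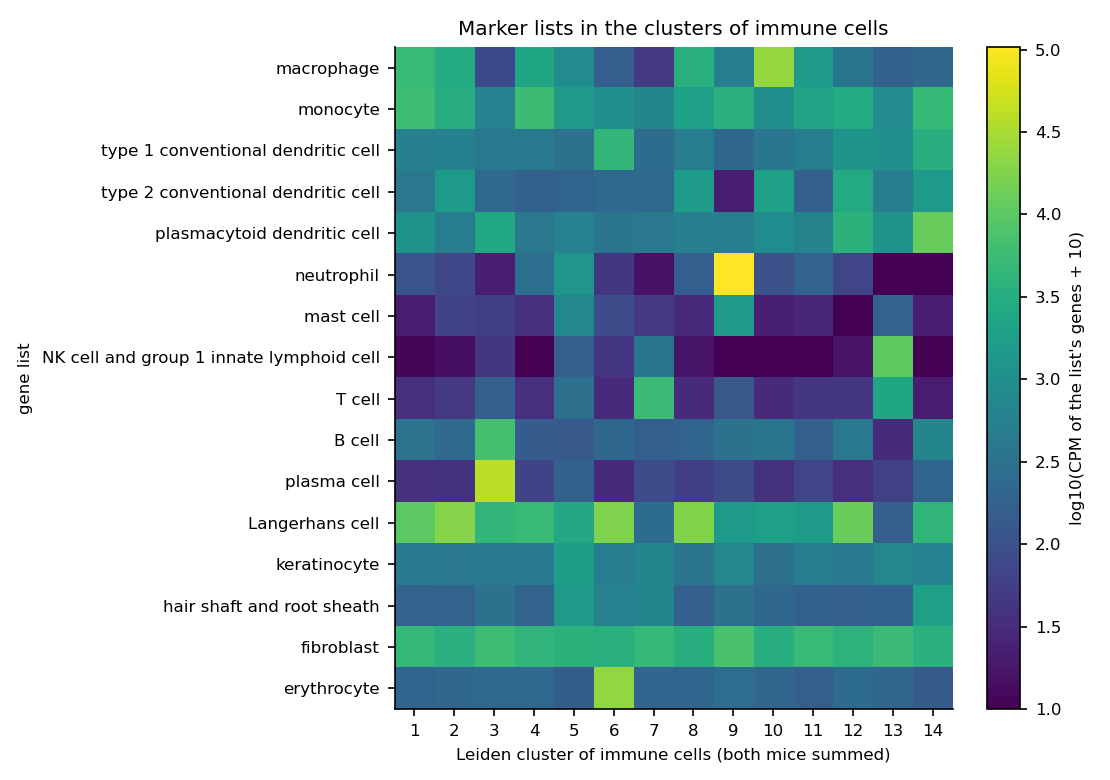
Marker lists are shown against the 14 clusters, with colour for the summed level as log10 of CPM plus 10 over both mice. Each named cluster stands out on its own list, the neutrophil list reaching 117724 and 99917 CPM in cluster 9, and the Langerhans cell list is high in clusters 2, 6, 8 and 12 because it holds the MHC class II genes Cd74 and H2-Aa.

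No cluster was named from the Langerhans, mast, eosinophil, basophil, plasma or migratory dendritic cell lists. Cd207 UMIs occurred in 5 immune cells of mouse 1 and 1 of mouse 2. Ccr7, the homing receptor of migratory dendritic cells, was highest in the B cell-like cluster at 201 and 125 CPM. Since CD45-bearing cells were sorted against, an absence here describes the sorted cells.

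Cluster 1 differed most in size between the mice. It held 5 of 236 cells of mouse 1 (2.12%, 0.691 to 4.87) and 93 of 428 of mouse 2 (21.7%, 17.9 to 25.9). It was led by Fcgr1, an Fc receptor of monocytes and macrophages, at 1125 and 600 CPM, by Ly6c2, an antigen of classical monocytes, at 2417 and 1752 CPM, and by genes of the interferon response such as Irf7, Ifit2, Ifit3 and Oasl2. Because those genes both defined the cluster and differed between the mice, its size is a description of that difference and not of a cell type. When 179 genes tied to interferon, or leading that cluster, were left out of the clustering, a step added after the values were seen, the 664 cells fell into 15 clusters and the 93 cells of mouse 2 spread over 5 of them.

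**Figure D3:**
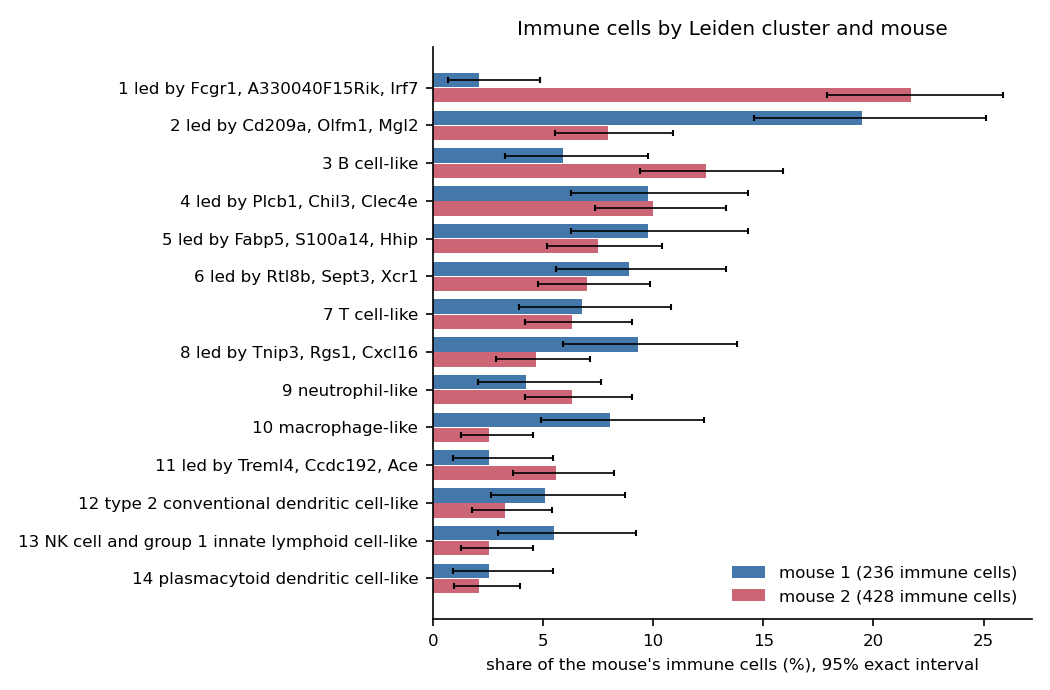
Bars give the share of each mouse's immune cells (percent, x axis) in each of the 14 clusters, with 95% exact intervals for counting error. Cluster 1 holds 2.12% of mouse 1 and 21.7% of mouse 2, cluster 2 holds 19.5% and 7.94%, and the intervals of the mice overlap in all clusters but 1, 2 and 10.

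In the clustering without interferon genes, 34 of the 93 cells joined a macrophage-like cluster led by C1qb and C3ar1, a complement receptor, 30 joined an unnamed cluster and 19 another. That macrophage-like cluster made up 3.81% (1.76 to 7.12) of mouse 1 and 10.0% (7.37 to 13.3) of mouse 2. The macrophage-like cluster led by Ccl8 and Folr2 stayed apart, with 17 and 7 cells, 7.20% (4.25 to 11.3) and 1.64% (0.660 to 3.34). The shares of the 2 macrophage-like clusters thus lay in opposite orders between the mice, and their intervals did not overlap. With 1 library per mouse, the mice cannot be told apart from their libraries.

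Interferon-stimulated genes stood higher in mouse 2. A list of 13 interferon-stimulated genes was at 1265 CPM in mouse 1 and 3078 CPM in mouse 2, a log2 difference of 1.28. Ifi27l2a made up the largest part of this sum in both mice. All 13 genes were higher in mouse 2. Isg15, a ubiquitin-like protein, went from 51.0 to 196 CPM, Bst2, a membrane protein that tethers budding viruses, from 121 to 367, and Irf7, the transcription factor that amplifies interferon, from 58.6 to 163. Ifit3, an antiviral RNA-binding family member, went from 22.1 to 79.1 CPM, and Rsad2, the antiviral enzyme viperin, from 36.5 to 92.5. The median log2 difference over the 13 genes was 1.17, against 0.01 over all 9971 genes compared.

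The difference extended over most clusters and to the non-immune cells. In the C1q subset, of which 20 of 40 cells of mouse 2 and 0 of mouse 1 were in cluster 1, the list went from 3239 to 5643 CPM, in the T subset from 267 to 897, and in the cells of no subset from 944 to 2816. It was higher in mouse 2 in 13 of 14 clusters, from 1805 to 4300 CPM in the plasmacytoid dendritic cell-like cluster for example, and lower only in cluster 11, at 899 and 684 CPM. In the plasmacytoid dendritic cell-like cluster, Bst2, which was also among its cell type markers, was at 1536 and 2814 CPM. Ifit1, Ifit2, Ifit3 and Rsad2 had 0 UMIs there in both mice. The exact Poisson intervals of the mice overlapped in clusters 1, 3, 11 and 13. Without cluster 1, an alternative added after the values were seen, immune cells went from 1158 to 1930 CPM, a log2 difference of 0.74. In the clusters made without interferon genes it was higher in 14 of 15. The other kept cells went from 559 to 1827 CPM, with all 13 genes higher in mouse 2, Isg15 going from 35.8 to 223 CPM. Per cell, the list took a median of 0.0548% of the UMIs of an immune cell in mouse 1 and 0.134% in mouse 2. The medians were close in cluster 1, at 0.699% and 0.709%, and lower in mouse 2 in cluster 10, at 0.348% and 0.306%. It passed 1% in 1 and 30 cells, 27 of the 30 being in cluster 1.

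**Figure D4:**
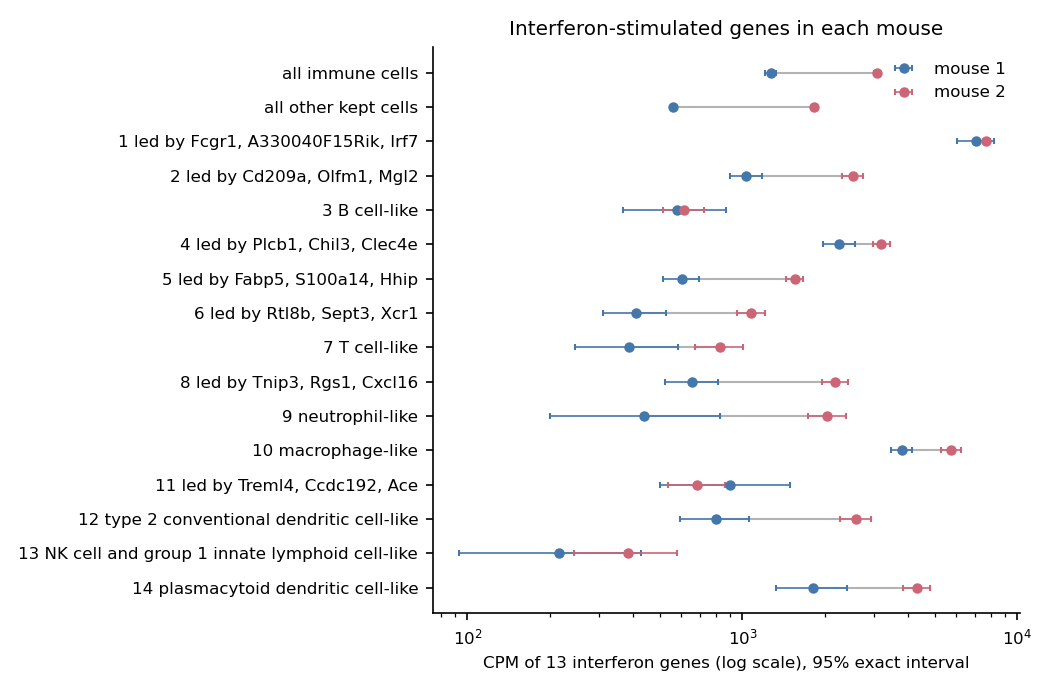
The summed level of the 13 interferon-stimulated genes (CPM, log axis) is plotted for mouse 1 and mouse 2 in all immune cells, all other kept cells and each cluster, with 95% exact Poisson intervals. Mouse 2 lies above mouse 1 in all immune cells (3078 against 1265), in the other kept cells (1827 against 559) and in every cluster but 11.

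Most single genes moved less than the 4-fold used for the subsets. From mouse 1 to mouse 2, 5 of 9971 genes (0.0501%) were at least 4-fold higher in all immune cells, and 0 of the 13 interferon genes were among them. In the cells of no subset 0.0605% of genes passed, with Ifit3 the 1 interferon gene among them. In the C1q subset 0.537% passed, with 0 of the 13. In the T subset, where single UMIs weigh most, 3.37% passed, and 4 of 11 measured interferon genes, Ifit1, Irf7, Ifi27l2a and Zbp1, were among them.

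**Figure D5:**
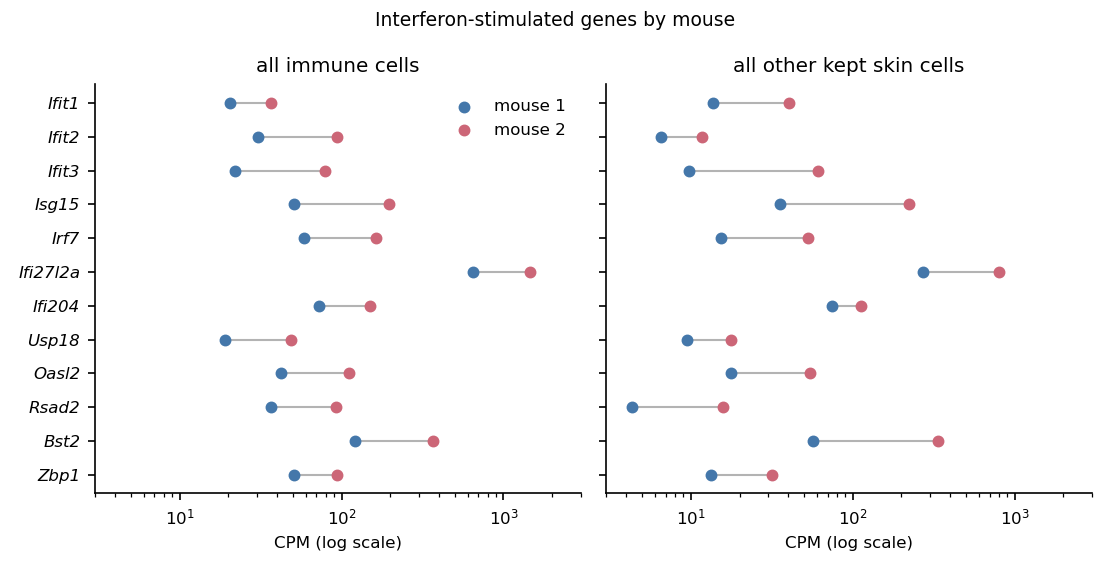
Of the 13 interferon-stimulated genes, 12 are plotted by their level (CPM, log axis) in mouse 1 and mouse 2, for the immune cells and for the other kept cells. Every gene plotted is higher in mouse 2 in both populations. In the immune cells Ifi27l2a is at 644 and 1461 CPM, out of 1265 and 3078 CPM for the whole list.

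The promoters of these genes are shown because the 13 genes moved together between the mice. RefSeq promoter windows of the 250 bases before the start site (GRCm38.p6) were found for 8 of the 13. They were searched on both strands for GAAANNGAAA, a core of the interferon-stimulated response element, and matches are in capitals, read 5′ to 3′ on the strand of the gene. 5 of the 8 held a match, against 3.46% of all 27025 genes with such windows. A match describes the letters only and is no evidence of binding. Isg15 (chr4:156200819-156201068, minus strand) had 3 overlapping matches, 78 to 66 bases before its start. Bst2 (chr8:71537473-71537722, minus strand) had 2 that overlapped, and Ifit1 (chr19:34640639-34640888, plus strand) had 2. Ifit3 (chr19:34583279-34583528, plus strand) had 2, and Rsad2 (chr12:26456453-26456702, minus strand) had 1. Irf7 (chr7:141266425-141266674, minus strand) had none in this window and is shown beside them, as the regulator among the 8. Ifit2 and Oasl2 had none either.
Isg15: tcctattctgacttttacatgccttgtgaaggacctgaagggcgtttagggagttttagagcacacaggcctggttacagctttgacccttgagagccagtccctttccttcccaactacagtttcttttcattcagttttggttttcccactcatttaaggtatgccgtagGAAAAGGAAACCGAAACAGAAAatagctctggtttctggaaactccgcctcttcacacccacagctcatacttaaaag
Bst2: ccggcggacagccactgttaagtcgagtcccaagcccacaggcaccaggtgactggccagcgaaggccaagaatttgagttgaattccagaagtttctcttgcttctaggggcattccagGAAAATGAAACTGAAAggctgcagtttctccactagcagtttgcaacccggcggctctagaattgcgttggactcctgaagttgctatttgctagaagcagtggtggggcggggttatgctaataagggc
Ifit1: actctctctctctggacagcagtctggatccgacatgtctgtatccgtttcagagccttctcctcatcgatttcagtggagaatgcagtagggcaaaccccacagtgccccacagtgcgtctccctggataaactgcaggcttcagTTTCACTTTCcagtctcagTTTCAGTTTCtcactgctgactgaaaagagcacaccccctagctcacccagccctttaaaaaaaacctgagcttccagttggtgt
Ifit3: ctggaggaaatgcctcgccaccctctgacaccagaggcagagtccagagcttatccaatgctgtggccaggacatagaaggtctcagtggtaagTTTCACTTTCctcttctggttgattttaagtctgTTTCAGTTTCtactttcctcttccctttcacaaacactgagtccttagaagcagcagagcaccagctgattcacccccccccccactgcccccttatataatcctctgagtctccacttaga
Rsad2: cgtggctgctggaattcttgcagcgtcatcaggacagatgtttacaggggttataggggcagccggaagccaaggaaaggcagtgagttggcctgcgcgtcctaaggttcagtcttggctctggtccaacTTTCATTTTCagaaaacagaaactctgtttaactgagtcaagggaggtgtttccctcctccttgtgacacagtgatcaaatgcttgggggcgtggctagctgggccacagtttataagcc
Irf7: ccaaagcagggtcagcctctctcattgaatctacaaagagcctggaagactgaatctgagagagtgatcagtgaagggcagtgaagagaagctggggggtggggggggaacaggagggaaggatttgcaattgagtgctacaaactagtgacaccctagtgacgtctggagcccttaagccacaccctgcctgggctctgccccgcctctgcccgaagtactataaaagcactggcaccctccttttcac

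A few other genes separated the mice in the same direction in the C1q subset, the T subset and the cells of no subset. The strain and sex of the mice were not in the labels, and whether the 2 mice differed in either was not tested. Cwc22 (chr2:77881159-77946375), a splicing factor, went from 92.8 CPM in mouse 1 to 630 in mouse 2 in all immune cells, and from 86.3 to 600 CPM in the other kept cells. Ifi202b (chr1:173962568-173982744), of the interferon-inducible p200 family, went from 95.8 to 469 CPM, and from 101 to 350 CPM in the other kept cells. Mndal (chr1:173849126-173942491), of the same family and the same stretch of chromosome 1, went the other way, from 300 to 41.2 CPM in immune cells and from 71.7 to 35.6 CPM in the other kept cells. Ifi204, another member of that stretch (chr1:173747293-173766943) and 1 of the 13 listed genes, went from 73.0 to 151 CPM. These family members are close copies, so reads could be split among them in the counting. Arhgap6, a GTPase-activating protein, went from 47.1 to 122 CPM. Higher in mouse 1 beside Mndal were the chaperonin subunit Cct3, at 122 and 67.6 CPM, Gadd45g, at 52.5 and 26.7 CPM, Mpp7, at 286 and 171 CPM, and Pebp1, at 212 and 132 CPM.

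The list of genes that handle retinoids, the vitamin A compounds the series studied, stood lower in the immune cells than in the rest of the skin. It was at 459 and 446 CPM, against 1193 and 1214 CPM in the other kept cells. Rara, a retinoic acid receptor, was at 85.9 and 88.9 CPM in immune cells, above the 36.8 and 33.3 CPM of the others, while Rarg was at 41.8 and 36.9 CPM against 47.1 and 44.9. Aldh1a2, an enzyme that makes retinoic acid, was at 6.84 and 7.59 CPM against 1.11 and 0.786, and reached 46 and 32 CPM in cluster 8. That cluster held 129490 and 154166 UMIs over 22 and 20 cells, so its Aldh1a2 levels rest on few UMIs. Aldh1a3, another such enzyme, was at 8.37 and 32.2 CPM against 85.7 and 70.2, and Aldh1a1 at 2.28 and 6.14 CPM against 36.8 and 69.2. Dhrs3, which returns retinal to retinol, was at 66.2 and 65.0 CPM against 29.3 and 40.6, and at 168 and 233 CPM in the C1q subset. Cyp26a1 and Cyp26c1, enzymes that break down retinoic acid, had 0 UMIs in the immune cells of both mice. None of 12 measured retinoid genes was counted as higher or lower in the C1q or the T subset.

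Signals that immune cells send were not all carried by the subsets. Tgfb1, transforming growth factor beta 1, was at 156 and 158 CPM in immune cells and at 23.4 and 20.6 CPM in the other kept cells, and its levels in the C1q and T subsets of both mice lay between 130 and 146 CPM. Il1b was at 351 and 367 CPM against 1.01 and 1.62, and Osm, oncostatin M, at 14.1 CPM in mouse 2 against 0.147. Csf1, the growth factor of macrophages, showed the reverse, at 16.7 and 24.6 CPM in immune cells against 173 and 128 CPM, while its receptor Csf1r was at 170 and 205 CPM in immune cells against 2.32 and 2.36.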

How the data were processed

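UMI counts per gene and barcode, as the authors deposited them for called cells of 2 mice, were used as they stood. Cell Ranger made them on mm10 (7.0.1 in the submitters' processing notes, 7.0.0 in the file header), before any correction for free RNA or doublets that the study's methods name. Counts were summed per mouse and group of cells and given as CPM, per 1000000 UMIs of the group. No test was made, since the cells were selected on the same counts and each mouse gave 1 library. Shares carry exact Clopper-Pearson and levels exact Poisson intervals at 95%.

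The 664 immune cells and the gene lists were chosen with earlier results of these data known. Named genes were those of the lists and of the rule, and the 10 leading genes of each subset with at least 50 CPM in both mice. They also included the 10 leading genes of each cluster with at least 50 CPM in the summed cells of both mice. The 5 genes each way that differed most between the mice in the same direction in 3 groups were named too. Where others were named, the text says so. Clusters came from Leiden clustering (scanpy 1.11.5, leidenalg 0.10.2, resolution 1.0, 15 principal components, 15 neighbours, 2000 variable genes). Doublets were called by Scrublet and left in. Scripts were tested on simulated data. TMM factors came from edgeR 4.0.16, used for scaling alone. Alternatives covered each limit of the rule, the subset limit, thinning to 1500 UMIs, scaling, the CPM added, doublets and leaving out 1 mouse. 5 settings were chosen after seeing the data. They were clustering without interferon genes, leaving out doublets with cluster 5, leaving out cluster 1 and setting genes of single cells aside in naming. The last was giving no name where leading genes held more markers of another list. ATAC-seq, RNA-seq, CUT&RUN and hashtag libraries were not used here. List genes Trgv4, Trgv5, Trgv6, Krt85 and Clec7a had no match. Some genes are not reported here.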

Additional observations from a re-analysis of the deposited data

How the results depend on the processing

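Of 103 alternative values, 82 stayed within the margin set for them and 21 moved. Some of the 82 could not have moved. For levels with 1 mouse left out, the margin was the spread between the mice, which such a change cannot exceed. Counts with no minimum CPM could not change either, since 4-fold with 10 CPM added already needs more than that minimum. These values say nothing about stability. The immune share of mouse 1 was 1.43% with at least 8 UMIs of the 5 genes, and that of mouse 2 was 2.77% so, 3.38% with no fibroblast gene limit and 3.56% at a mitochondrial limit of 5%. The T subset fell from 4.82% to 2.44% of immune cells when each was thinned to 1500 UMIs, leaving out 5 and 2 shallower cells, and the MHC class II list in the C1q subset was at 13907 CPM as a mean over cells, against 11369. The counts of genes past 4-fold moved with the CPM added and with a mouse left out. Adding 50 CPM gave 25 higher and 9 lower in the C1q subset and 22 and 69 in the T subset, and adding 1 CPM gave 129 and 260, and 232 and 800. With 1 mouse left out, where agreement of both mice is no longer asked for, the C1q counts ranged from 76 to 190 higher and from 107 to 183 lower, and the T counts from 175 to 251 and from 544 to 562. The share of C1q calls that were higher went from 51.2% to 73.5% with 50 CPM and 33.2% with 1 CPM added. With TMM scaling, which moved the median of all genes in the T subset from 0.07 and -0.10 to -0.24 and -0.30 (log2), 65 genes were higher and 336 lower there. Without cluster 1 the interferon list in immune cells was 1158 CPM in mouse 1 and 1930 in mouse 2, a log2 difference of 0.74 against 1.28. Resolutions of 0.5 and 1.5 gave 12 and 18 clusters. No paired analysis was possible because the values come from no test and both mice belong to 1 group. Low depth limits the T subset most, where 3 UMIs come to 36.4 CPM.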
